A study of Arabidopsis with 12 samples.

Results

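The 64 genes described here encode expansins and xyloglucan endotransglucosylase/hydrolases (XTHs) of Arabidopsis thaliana. They are the rows of the deposited TPM matrix whose gene description names an expansin, a xyloglucan endotransglucosylase or a xyloglucan endotransglycosylase, out of 37825 genes in all. By their RefSeq names 24 are alpha-expansins (EXPA), 6 are beta-expansins (EXPB), 4 are expansin-like genes (EXLA and EXLB) and 30 are XTHs. In the authors' deposited table every expansin and expansin-like member carries the 2 expansin domains and every XTH member carries the glycosyl hydrolase family and XTH C-terminal domains, which the rule did not use. RNA was sequenced from seedlings in 4 groups of 3 libraries each. The mac3a3b mutant, mutated in both MAC3A and MAC3B and called the mutant below, and the wild type (WT) were each sampled as a control and at 3 days, which gives mutant 3 days, WT 3 days, mutant control and WT control. The series text counts the 3 days from when the heat stress ended, and the protocol gives 37 °C for the heated material. All groups grew on MS medium with 1.2% sucrose. The sources used here do not give seedling age, alleles, accession or how long the heat lasted. The titles call the earlier samples control where the series text speaks of 0 hours, and the labels name no unheated plants taken at 3 days, so the heat cannot be told apart from age or growth in any change from control to 3 days.

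Growing plant cells are held in by a wall of cellulose fibrils that are coated and linked by the polysaccharide xyloglucan. Alpha-expansins loosen this wall without cutting it, at the acid pH that plasma membrane proton pumps set up outside the cell, and beta-expansins are their relatives, studied mainly in grasses. Expansin-like proteins share the fold of expansins, but no wall-loosening activity has been shown for them. XTHs cut xyloglucan chains and rejoin them to other chains, and a small subgroup mainly hydrolyses them. Both families are large in Arabidopsis, and auxin, brassinosteroid, gibberellin, light and mechanical stimulation act on different members.

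The mutant label was checked on the targeted genes, both lower in the mutant. MAC3A had 6.12 ± 0.623 TPM in mutant 3 days, against 60.4 ± 1.03 TPM in WT 3 days, and 9.74 ± 0.590 TPM in mutant control, against 34.7 ± 1.19 TPM in WT control. MAC3B had 9.44 ± 0.581 TPM in mutant 3 days, against 133 ± 4.68 TPM in WT 3 days, and 10.4 ± 0.415 TPM in mutant control, against 72.6 ± 3.32 TPM in WT control (means ± SD, n = 3 each). TPM is each transcript's share of its library per length, so levels of different genes can be compared, but how many reads lie behind a value cannot be known. Values of the expansins and XTHs are given per library in replicate order, or as mean ± SD of 3 libraries. Changes are log2 fold changes of TPM + 1 with 1 standard error from a limma fit over the 22462 genes that reached 1 TPM in no fewer than 3 libraries, and a gene was called at a Benjamini-Hochberg adjusted p under 0.05. This scale understates the change of low genes. Each p-value rests on how libraries vary within groups, a spread shared over the 4 groups and moderated over all genes tested. It is therefore not the spread of the 3 libraries of a single group. Whether replicates came from separate cultures is not stated, so that variation may be technical. TPM is a share of the library, and the median change of all genes was -0.51 for mutant 3 days against WT 3 days, 0.060 for mutant control against WT control, -0.13 for mutant 3 days against mutant control and 0.39 for WT 3 days against WT control. After median-of-ratios scaling it was -0.073 for mutant 3 days against WT 3 days and 0.011 for WT 3 days against WT control.

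Of the 64 genes, 48 passed the filter and were tested. They are 16 alpha-expansins, 3 beta-expansins, 4 expansin-like genes and 25 XTHs. The other 16 never passed a TPM of 0.8. Among these, EXPA22 to EXPA26, EXPB4, EXPB5, EXPB6 and XTH1 were listed at 0 in every library, and EXPA2, known from seed germination, EXPA12, EXPA21, XTH2, XTH3, XTH26 and XTH29 had a value above 0 in at least 1 library. A gene that passed only through the group where it is high had to differ, so counts over the 48 describe these genes and are no test.

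The summed level of the alpha-expansins was lowest in mutant 3 days and highest in mutant control. It reached 161 ± 8.31 TPM in mutant 3 days, 386 ± 17.8 TPM in WT 3 days, 1131 ± 48.3 TPM in mutant control and 657 ± 10.9 TPM in WT control. The beta-expansins followed the same order, with sums of 1.49 ± 0.423 TPM in mutant 3 days, 15.9 ± 0.810 TPM in WT 3 days, 121 ± 1.00 TPM in mutant control and 82.01 ± 4.09 TPM in WT control. Expansin-like genes ran the other way, with sums of 563 ± 17.4 TPM in mutant 3 days, 247 ± 40.7 TPM in WT 3 days, 35.5 ± 1.78 TPM in mutant control and 47.7 ± 1.02 TPM in WT control. In these 3 families no library overlapped with those of another group. XTHs summed to 1755 ± 57.5 TPM in mutant 3 days, 1965 ± 233 TPM in WT 3 days, 1058 ± 15.2 TPM in mutant control and 1362 ± 21.3 TPM in WT control, and here the libraries at 3 days overlapped, since the highest of mutant 3 days had 1819 TPM and the lowest of WT 3 days 1805 TPM. With median-of-ratios scaling the XTH mean was higher in mutant 3 days than in WT 3 days (2024 against 1538 TPM). No test was made on a sum. In whole seedlings, fewer cells of a type and less RNA per cell cannot be told apart.

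**Figure D1:**
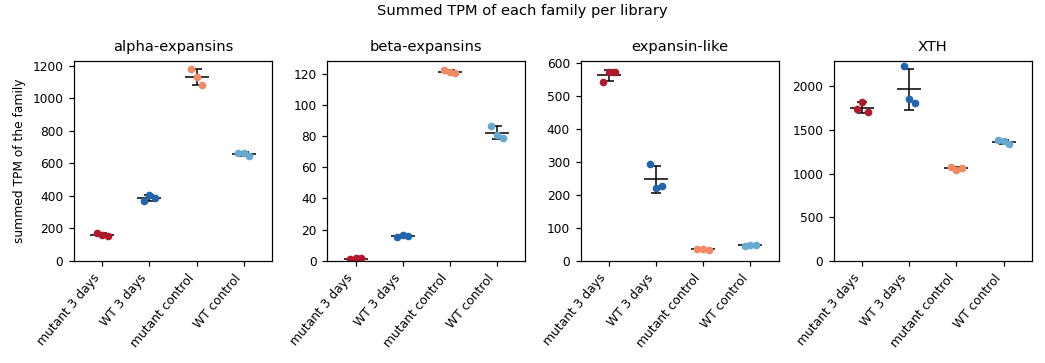
Summed TPM of the alpha-expansins, beta-expansins, expansin-like genes and XTHs (y axis, from 0) in the libraries of each group (x axis). Points are libraries and black marks are means ± SD of 3 libraries. Alpha- and beta-expansin sums are lowest in mutant 3 days, where the expansin-like sum is highest, with a mean of 563 TPM.

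A few members held much of each sum, and outside the beta-expansins the leading member changed between groups. The top 3 XTHs held 47.9% of the XTH sum in WT 3 days and 66.7% in mutant 3 days. Of the alpha-expansin TPM, EXPA10 held 41.8% in mutant 3 days and 26.1% in WT 3 days, while EXPA1 held 40.7% in mutant control and 29.6% in WT control. EXLA1 held 90.3% of the expansin-like TPM in mutant 3 days, 69.97% in WT 3 days and 58.2% in WT control, whereas in mutant control EXLB1 led with 60.3%. Among XTHs, XTH24 led with 45.4% in mutant 3 days and 20.3% in WT 3 days, and XTH4 led with 23.7% in mutant control and 30.3% in WT control. EXPB3 led the beta-expansins in every group.

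**Figure D2:**
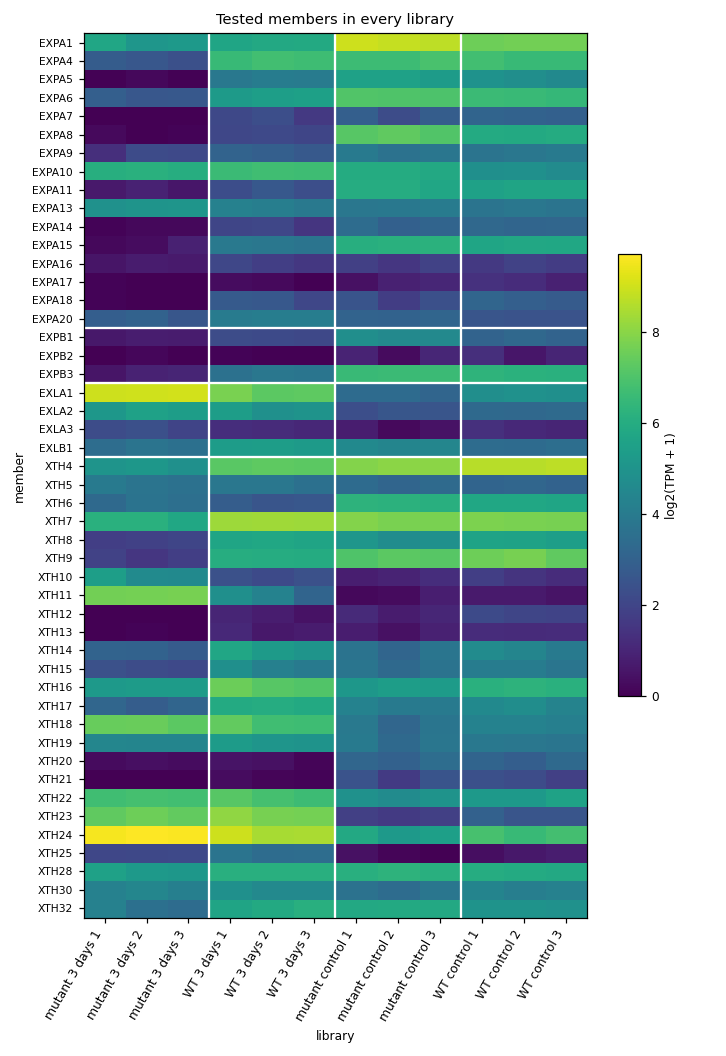
Level of the 48 tested members (rows, by family) in the 12 libraries (columns, white lines between groups), as log2(TPM + 1) on a colour scale. Most alpha- and beta-expansins are darkest in mutant 3 days, while EXLA1, XTH11 and XTH24 are brightest there.

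In mutant 3 days against WT 3 days, 33 of the 48 tested members were lower and 8 higher. Over all genes tested, 58.7% were lower and 24.1% higher in that comparison. Counting only calls of at least 2-fold, 25 members were lower and 5 higher, against 32.7% and 8.1% of all genes. In mutant control against WT control the members split differently, with 18 lower and 13 higher, beside 19.2% lower and 30.3% higher over all genes. Only 3 of them were lower and 5 higher by at least 2-fold, where all genes gave 3.08% and 2.56%. From control to 3 days, 32 members fell and 15 rose in the mutant, and 20 fell and 21 rose in WT. Over all genes 46.5% fell and 39.4% rose in the mutant, and 26.4% fell and 54.9% rose in WT. By at least 2-fold, 24 members fell and 11 rose in the mutant (29.8% and 22.1% of all genes), and 14 fell and 14 rose in WT (11.5% and 26.2% of all genes). The WT split became 24 falling and 17 rising after median-of-ratios scaling, and quantile normalization gave 25 and 18. The test of the difference of responses, mutant minus WT, called 29 members lower and 10 higher, beside 56.3% and 20.6% of all genes, and 27 lower and 7 higher by at least 2-fold, beside 33.9% and 8.12%.

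**Figure D3:**
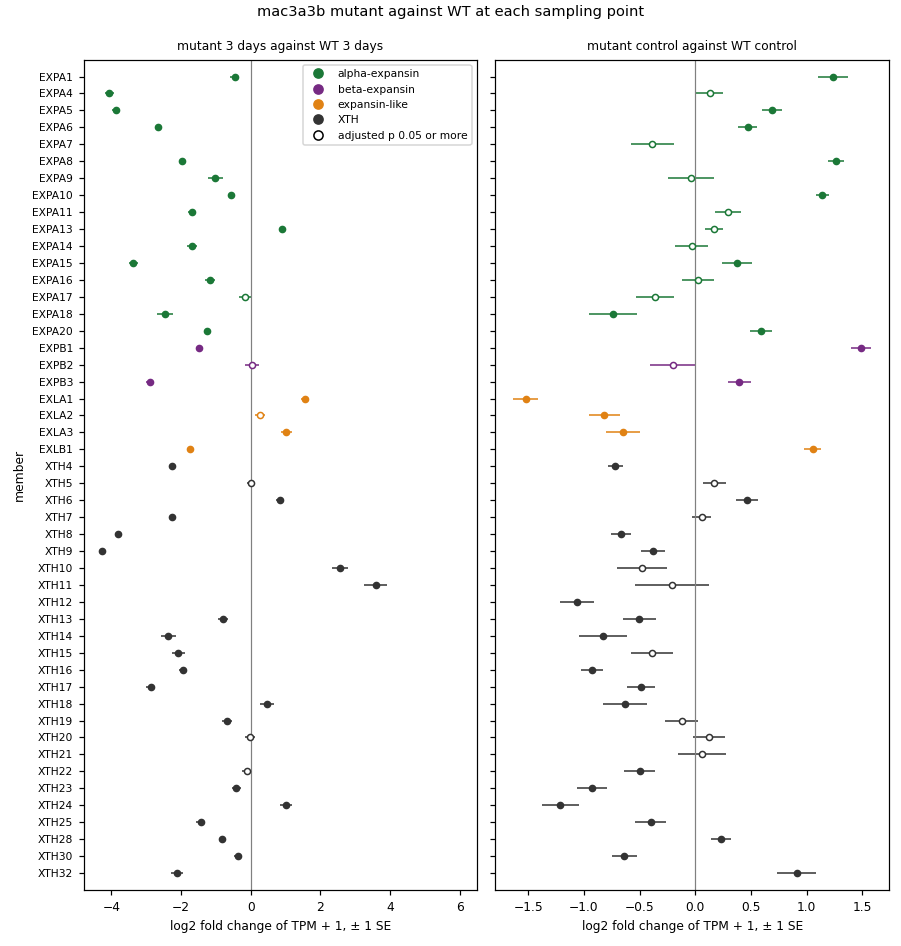
Log2 fold change of TPM + 1 with 1 standard error (x axis) of each tested member (y axis) for mutant 3 days against WT 3 days and for mutant control against WT control, on different x scales. Filled points had an adjusted p under 0.05, and EXPA7, XTH12 and XTH21, listed at 0 in all libraries of mutant 3 days, are left out of the 3 day panel. Most alpha-expansins lie right of 0 or near it at control and left of 0 at 3 days, and EXLA1 and XTH24 do the reverse.

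Most alpha-expansins fell from control to 3 days in both genotypes, and most of them fell further in the mutant. Of the 16 tested, 14 fell and 2 rose in the mutant, beside 46.5% and 39.4% of all genes. In WT 10 fell and 3 rose, beside 26.4% and 54.9% of all genes. The difference of responses was called lower for 14 and higher for 1, beside 56.3% and 20.6% of all genes. The alpha-expansin median change was -2.84 in the mutant and -0.96 in WT, which is -2.70 and -1.35 relative to the median of all genes. Without EXPA7, listed at 0 in every library of mutant 3 days, the mutant median was -3.00. Against WT, 7 were higher and 1 lower in mutant control, beside 30.3% and 19.2% of all genes. In mutant 3 days 1 was higher and 14 lower than in WT 3 days, beside 24.1% and 58.7% of all genes.

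EXPA8, a growth-associated expansin bound by the elongation factor HBI1, fell most of all tested members in the mutant on this scale. It had 0.18, 0 and 0.06 TPM in mutant 3 days, against 3.24, 3.38 and 3.09 TPM in WT 3 days. EXPA8 had 144, 158 and 134 TPM in mutant control, against 59.4, 59.2 and 61.1 TPM in WT control. The 4 groups did not overlap, and mutant control was the highest. It fell by 7.08 ± 0.075 in the mutant (limma adjusted p = 2.07e-14) and fell by 3.85 ± 0.075 in WT (limma adjusted p = 1.96e-12), and the responses differed by -3.24 ± 0.11 (limma adjusted p = 4.26e-10). EXPA1, whose product acts in guard cell walls, was the most abundant alpha-expansin in both control groups. It had 52.3, 33.3 and 36.2 TPM in mutant 3 days, against 51.2, 56.9 and 57.7 TPM in WT 3 days. EXPA1 had 504, 454 and 424 TPM in mutant control, against 189, 199 and 196 TPM in WT control. Mutant control stood above WT control in every library (1.24 ± 0.13, limma adjusted p = 2e-05), and at 3 days the libraries of mutant and WT overlapped (52.3 TPM in a mutant library, 51.2 TPM in a WT library). The called decrease at 3 days (-0.46 ± 0.13, limma adjusted p = 0.00707) turned to 0.085 (limma adjusted p = 0.543) with median-of-ratios scaling. EXPA1 fell by 3.496 ± 0.13 in the mutant and fell by 1.80 ± 0.13 in WT.

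EXPA5 and EXPA4 showed the largest differences of response among alpha-expansins with the pseudocount of 1. With a pseudocount of 0.1 EXPA5 stood at -7.14, EXPA15 at -5.32 and EXPA4 at -4.41. EXPA8 then changed by -9.78 in the mutant and -4.17 in WT, which lie further apart than the responses of EXPA15. The place of EXPA4 therefore depends on the pseudocount. EXPA5, which promotes organ growth downstream of brassinosteroid, had 0.04, 0.15 and 0.05 TPM in mutant 3 days, against 13.9, 15.7 and 15.2 TPM in WT 3 days. EXPA5 had 46.1, 45.6 and 39.1 TPM in mutant control, against 29.4, 27.1 and 23.5 TPM in WT control. At 3 days it was thus near 0 in each mutant library and at or above 13.9 TPM in each WT library (-3.88 ± 0.094, limma adjusted p = 1.53e-11). Its difference of responses was -4.57 ± 0.13 (limma adjusted p = 2.37e-10). EXPA4 was level across the other groups and low in mutant 3 days. It had 6.01, 5.13 and 4.1 TPM in mutant 3 days, against 90.7, 107 and 102 TPM in WT 3 days. EXPA4 had 100.1, 99 and 120.1 TPM in mutant control, against 109, 91.3 and 91.2 TPM in WT control. WT 3 days and WT control overlapped, with a change of 0.040 ± 0.12, limma adjusted p = 0.767, while the mutant changed by -4.15 ± 0.12 (limma adjusted p = 1.68e-11), so that the responses differed by -4.19 ± 0.17 (limma adjusted p = 1.7e-09). With both rescalings the WT change of EXPA4 became a called decrease, -0.41 (limma adjusted p = 0.00529) with median-of-ratios scaling and -0.30 (limma adjusted p = 0.0172) with quantile normalization.

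EXPA15 and EXPA11 fell in both genotypes and nearly vanished from mutant 3 days. EXPA15 had 0.16, 0.25 and 0.83 TPM in mutant 3 days, against 14.2, 13.6 and 12.4 TPM in WT 3 days. EXPA15 had 67.6, 70.1 and 71.4 TPM in mutant control, against 51.2, 54.96 and 54.5 TPM in WT control, and its difference of responses was -3.75 ± 0.19 (limma adjusted p = 9.35e-09). EXPA11 had 0.6, 0.92 and 0.52 TPM in mutant 3 days, against 3.88, 5.32 and 4.05 TPM in WT 3 days. EXPA11 had 63.95, 62.8 and 53.1 TPM in mutant control, against 45.4, 50.2 and 50.1 TPM in WT control, and fell by 5.18 ± 0.12 in the mutant and fell by 3.20 ± 0.12 in WT. In both genes the libraries of mutant 3 days lay below all others. EXPA6 had the same order of groups, with means of 5.74 TPM in mutant 3 days, 41.5 TPM in WT 3 days, 129 TPM in mutant control and 92.7 TPM in WT control, and changed by -4.27 ± 0.083 in the mutant and -1.14 ± 0.083 in WT.

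EXPA10, EXPA13 and EXPA20 were the alpha-expansins that rose in WT. EXPA10, whose suppression makes smaller leaves and shorter petioles, had 66.3, 71.03 and 64.3 TPM in mutant 3 days, against 95.7, 105 and 101 TPM in WT 3 days. EXPA10 had 61.3, 61.4 and 57.6 TPM in mutant control, against 27.6, 27.9 and 24.7 TPM in WT control. The mutant was above WT at control (1.14 ± 0.058, limma adjusted p = 1e-07) and below WT at 3 days (-0.58 ± 0.058, limma adjusted p = 1.97e-06), with no overlap of TPM at either point. Median-of-ratios scaling divides mutant 3 days libraries by 0.845 to 0.898 and WT 3 days libraries by 1.27 to 1.29. After that scaling, EXPA10 overlapped between mutant and WT at 3 days. It rose by 1.88 ± 0.058 in WT (limma adjusted p = 7.19e-11), against 0.16 ± 0.058 in the mutant (limma adjusted p = 0.0237), a small increase that turned to -0.16 (limma adjusted p = 0.0287) with quantile normalization. Without mutant control replicate 3 the mutant change was 0.13 (limma adjusted p = 0.0888), and without mutant 3 days replicate 2 it was 0.12 (limma adjusted p = 0.0979). EXPA13 was higher in mutant 3 days than in any other group, the sole tested alpha-expansin called higher in the mutant at 3 days (0.89 ± 0.084, limma adjusted p = 1.08e-06). It had 28.7, 31.3 and 32.7 TPM in mutant 3 days, against 18.04, 16.5 and 14.3 TPM in WT 3 days. EXPA13 had 13.4, 13.9 and 15.3 TPM in mutant control, against 12.1, 13.2 and 12.2 TPM in WT control. Its increase in WT of 0.35 ± 0.084 (limma adjusted p = 0.00218) turned to -0.070 (limma adjusted p = 0.471) with median-of-ratios scaling and -0.038 (limma adjusted p = 0.697) with quantile normalization. EXPA20 changed by 1.57 ± 0.10, limma adjusted p = 3.04e-08 in WT and -0.26 ± 0.10, limma adjusted p = 0.0287 in the mutant, and the mutant change turned to 0.24 (limma adjusted p = 0.0164) with quantile normalization. It overlaps the non-coding gene AT4G38215 over 1061 bases in the RefSeq table, which averaged 13.3 TPM in mutant 3 days, 10.6 TPM in WT 3 days, 1.13 TPM in mutant control and 0.613 TPM in WT control, and the sources used here do not give the strand setting of the counting, so EXPA20 is uncertain.

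The root alpha-expansins were low throughout and lowest in mutant 3 days. EXPA7 and EXPA18 act in root hair growth. EXPA7 stood at 0 TPM in all 3 mutant 3 days libraries, against 3.3, 4.03 and 2.07 TPM in WT 3 days, and at 6.56, 3.75 and 6.18 TPM in mutant control, against 7.68, 7.37 and 6.96 TPM in WT control, so no fold is given for mutant 3 days. EXPA18 had 0.06, 0 and 0 TPM in mutant 3 days, against 5.68, 5.35 and 3.18 TPM in WT 3 days. EXPA18 had 4.81, 2.35 and 4.19 TPM in mutant control, against 7.98, 6.68 and 5.85 TPM in WT control. At control it was lower in the mutant than in WT (-0.74 ± 0.22, limma adjusted p = 0.0146), a call lost without mutant control replicate 2, at -0.50 (limma adjusted p = 0.0558), without WT control replicate 1, at -0.64 (limma adjusted p = 0.0584), and in a fit of those 2 groups alone, at -0.74 (limma adjusted p = 0.0504). EXPA14, which acts in lateral root formation, had means of 0.13 TPM in mutant 3 days, 2.71 TPM in WT 3 days, 8.12 TPM in mutant control and 8.27 TPM in WT control. Of 4 other root hair genes taken as markers (COBL9, PRP3, LRX1 and RHD6), 4 were lower in mutant 3 days than in WT 3 days, beside 58.7% of all genes. At control none of the 4 differed by the test, where 30.3% of all genes were higher and 19.2% lower. The summed level of these markers was 0.62 to 0.7 TPM in mutant 3 days, 11.03 to 21.7 TPM in WT 3 days, 8.54 to 19.8 TPM in mutant control and 17.02 to 25.5 TPM in WT control. The part of root hair number in these results was not tested.

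**Figure D4:**
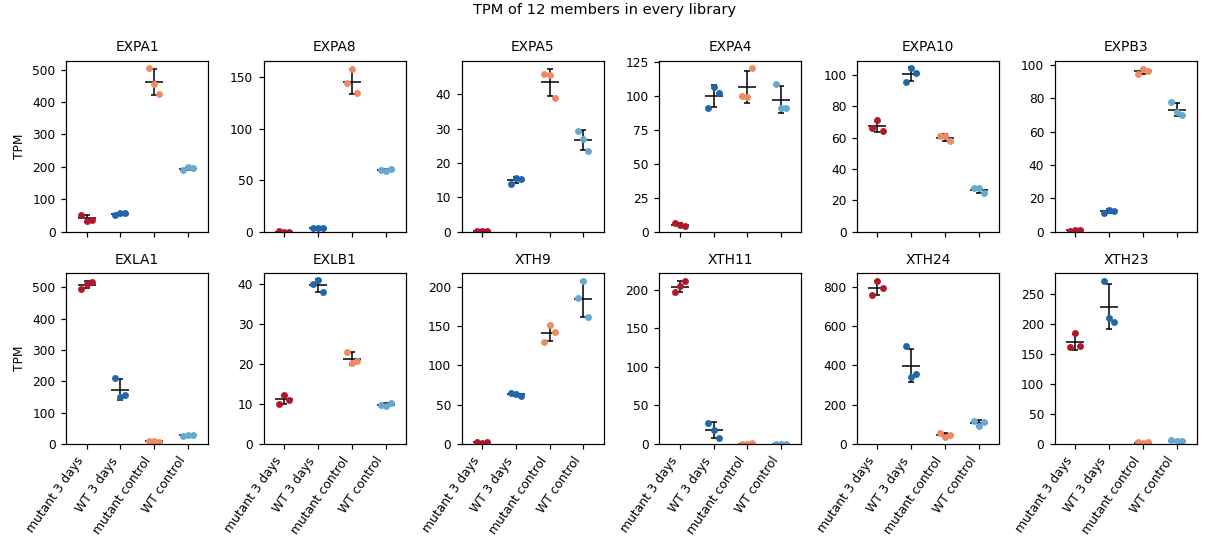
TPM (y axis, from 0, a scale per panel) of 12 members in the libraries of the 4 groups (x axis). Points are libraries and black marks are means ± SD of 3 libraries. EXPA1, EXPA8, EXPA5 and EXPB3 peak in mutant control, EXPA10, EXLB1 and XTH23 in WT 3 days, and EXLA1, XTH11 and XTH24 in mutant 3 days.

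Both well-expressed beta-expansins were higher in mutant control than in WT control and nearly absent from mutant 3 days. EXPB3 had 0.47, 0.92 and 1.01 TPM in mutant 3 days, against 11.4, 13.3 and 12.5 TPM in WT 3 days. EXPB3 had 94.7, 97.6 and 96.8 TPM in mutant control, against 77.6, 71.6 and 70.2 TPM in WT control. No groups overlapped, and the response was -5.77 ± 0.10 in the mutant (limma adjusted p = 4.79e-13) and -2.47 ± 0.10 in WT (limma adjusted p = 7.9e-10), with a difference of -3.30 ± 0.15 (limma adjusted p = 3.24e-09). At control the mutant was higher by 0.39 ± 0.10 (limma adjusted p = 0.00791), a call lost with a pseudocount of 0.1, at 0.40 (limma adjusted p = 0.117). EXPB1 had 0.53, 0.71 and 0.68 TPM in mutant 3 days, against 3.8, 3.54 and 3.3 TPM in WT 3 days. EXPB1 had 26.7, 22.8 and 22.6 TPM in mutant control, against 7.56, 8.66 and 7.52 TPM in WT control. Its change at control (1.49 ± 0.091, limma adjusted p = 3.67e-07) was the largest increase among all tested members in that comparison, and its responses differed by -2.96 ± 0.13 (limma adjusted p = 2.91e-09). EXPB2 stayed at or below 1.45 TPM in every library.

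Among the expansin-like genes, all 3 EXLA members rose in the mutant and EXLB1 fell. EXLA1 had 496, 511 and 518 TPM in mutant 3 days, against 212, 151 and 157 TPM in WT 3 days. EXLA1 had 9.63, 9.45 and 7.98 TPM in mutant control, against 26.6, 29.4 and 27.4 TPM in WT control. It was thus lower in the mutant at control (-1.52 ± 0.11, limma adjusted p = 1.12e-06) and higher in mutant 3 days than in WT 3 days (1.56 ± 0.11, limma adjusted p = 7.5e-08), with no overlap. The increase was 5.67 ± 0.11 in the mutant (limma adjusted p = 8.13e-13) and 2.58 ± 0.11 in WT (limma adjusted p = 9.68e-10), and the difference was 3.09 ± 0.16 (limma adjusted p = 8.96e-09). EXLA2, whose loss alters the response to the fungus Botrytis cinerea, had 33.8, 45.9 and 40.8 TPM in mutant 3 days, against 41.2, 28.4 and 30.4 TPM in WT 3 days. EXLA2 had 4.02, 5.05 and 4.87 TPM in mutant control, against 8.9, 8.69 and 9.2 TPM in WT control. At 3 days mutant and WT libraries of EXLA2 overlapped (0.27 ± 0.14, limma adjusted p = 0.0926), while the mutant was lower at control (-0.82 ± 0.14, limma adjusted p = 0.000518), and the responses of 2.86 ± 0.14 in the mutant and 1.77 ± 0.14 in WT differed by 1.09 ± 0.20 (limma adjusted p = 0.000338). With median-of-ratios scaling and with quantile normalization, EXLA2 was called higher in mutant 3 days than in WT 3 days. EXLA3, which lies next to EXLA1 in the genome, averaged 3.61 TPM in mutant 3 days, 1.25 TPM in WT 3 days, 0.433 TPM in mutant control and 1.23 TPM in WT control, and rose in the mutant (1.69 ± 0.15, limma adjusted p = 5.83e-07) with no called change in WT (0.017 ± 0.15, limma adjusted p = 0.925), where quantile normalization gave -0.48 (limma adjusted p = 0.00558). EXLB1 had 10.1, 12.3 and 11.1 TPM in mutant 3 days, against 40.2, 40.96 and 38.02 TPM in WT 3 days. EXLB1 had 23.1, 20.2 and 20.8 TPM in mutant control, against 9.65, 9.43 and 10.2 TPM in WT control. WT 3 days held the highest values, and the gene changed by -0.88 ± 0.074 in the mutant (limma adjusted p = 2.64e-07) against 1.92 ± 0.074 in WT (limma adjusted p = 4.02e-10), a difference of -2.80 ± 0.10 (limma adjusted p = 9.71e-10).

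XTHs split in direction. Of the 25 tested, 10 rose and 14 fell in the mutant, and 15 rose and 7 fell in WT, with WT counts of 12 and 9 after median-of-ratios scaling. All genes gave 39.4% rising and 46.5% falling in the mutant. In WT they gave 54.9% rising and 26.4% falling, close to the XTH split. At control 3 XTHs were higher and 14 lower in the mutant than in WT, beside 30.3% and 19.2% of all genes. At 3 days 5 were higher and 16 lower, close to the 24.1% and 58.7% of all genes, and 7 and 13 with median-of-ratios scaling. The difference of responses was higher for 6 and lower for 12, beside 20.6% and 56.3% of all genes, and median-of-ratios scaling made this 10 and 11, quantile normalization 9 and 9. By their responses, 10 XTHs rose in both genotypes, 7 fell in both, 4 rose in WT and fell in the mutant, and 3 fell in the mutant with no called change in WT. Of the 10, XTH30 rose in WT (0.40 ± 0.11, limma adjusted p = 0.00601) but not after rescaling, at -0.035 (limma adjusted p = 0.771) with median-of-ratios scaling and -0.0016 (limma adjusted p = 0.99) by quantile normalization. The remaining XTH16 rose in WT with no called change in the mutant.

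**Figure D5:**
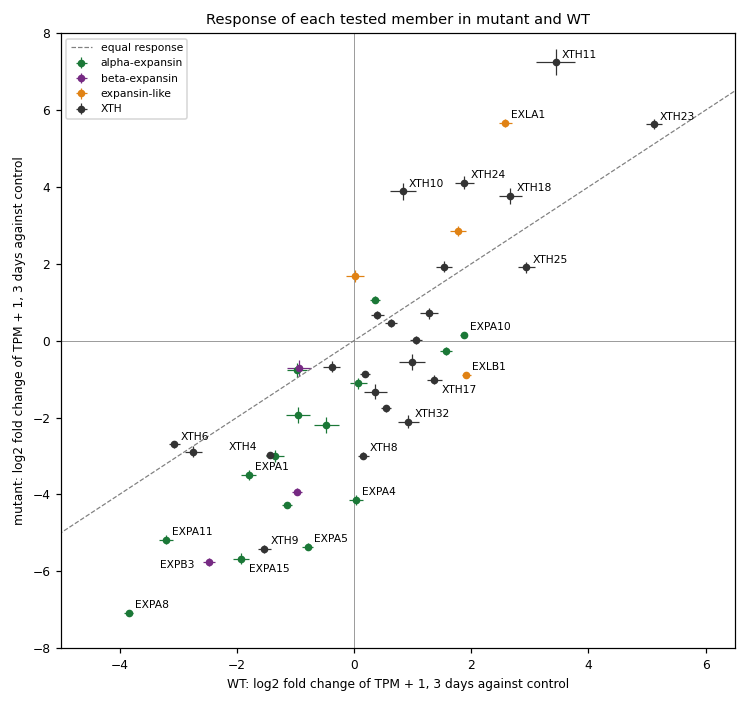
Log2 fold change of TPM + 1 from control to 3 days in WT (x axis) and in the mutant (y axis) with 1 standard error each, coloured by family. The dashed line marks equal responses, and EXPA7, XTH12 and XTH21, listed at 0 in all libraries of mutant 3 days, are left out. Most expansins lie below the line, and EXLA1, XTH11, XTH10 and XTH24 lie above it.

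The XTHs that rose in both genotypes include the most abundant transcripts of the family at 3 days. XTH24, known as MERI5 and listed among senescence-associated genes as SEN4, had 760.5, 831 and 797 TPM in mutant 3 days, against 498, 344 and 357 TPM in WT 3 days. XTH24 had 57.2, 36.97 and 43.4 TPM in mutant control, against 117, 91.7 and 111 TPM in WT control. Its libraries did not overlap between any groups. At control it was lower in the mutant (-1.21 ± 0.17, limma adjusted p = 0.000114) and higher in mutant 3 days than in WT 3 days (1.01 ± 0.17, limma adjusted p = 0.000128). The increase was 4.11 ± 0.17 in the mutant (limma adjusted p = 2.99e-10) and 1.88 ± 0.17 in WT (limma adjusted p = 5.97e-07), and it differed by 2.23 ± 0.24 (limma adjusted p = 4.1e-06). XTH11 was close to 0 in both control groups. It had 197, 205 and 211 TPM in mutant 3 days, against 27.7, 18.8 and 7.66 TPM in WT 3 days. XTH11 had 0.16, 0.22 and 0.74 TPM in mutant control, against 0.64, 0.63 and 0.43 TPM in WT control. The mutant libraries at 3 days lay within a narrow range, and the WT libraries spread from 7.66 to 27.7 TPM, all below the mutant (3.59 ± 0.33, limma adjusted p = 8.73e-07). Responses of 7.25 ± 0.33 in the mutant and 3.44 ± 0.33 in WT differed by 3.81 ± 0.47 (limma adjusted p = 1.58e-05). XTH10 was low in the other groups and reached 42.3, 23.8 and 23.5 TPM in mutant 3 days, against 4.29, 3.49 and 4.3 TPM in WT 3 days, with 0.75, 0.95 and 1.39 TPM in mutant control, against 2.49, 1.72 and 1.33 TPM in WT control. Its increase was 3.88 ± 0.22 in the mutant (limma adjusted p = 7.32e-09) and 0.84 ± 0.22 in WT (limma adjusted p = 0.00439), a difference of 3.05 ± 0.31 (limma adjusted p = 3.39e-06).

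XTH23 had the largest increase of any tested member in WT. It had 162, 186 and 164 TPM in mutant 3 days, against 272, 211 and 204 TPM in WT 3 days. XTH23 had 2.61, 2.17 and 2.58 TPM in mutant control, against 6.98, 4.95 and 4.93 TPM in WT control. It rose by 5.64 ± 0.13 in the mutant (limma adjusted p = 3.07e-12) and by 5.12 ± 0.13 in WT (limma adjusted p = 1.59e-11). At 3 days the mutant was lower (-0.41 ± 0.13, limma adjusted p = 0.0125), a direction that turned to 0.14 (limma adjusted p = 0.329) with median-of-ratios scaling. At control the mutant was lower too (-0.93 ± 0.13, limma adjusted p = 0.00015). XTH22, the touch-inducible TCH4 gene, averaged 109 TPM in mutant 3 days, 119 TPM in WT 3 days, 27.99 TPM in mutant control and 40.1 TPM in WT control, rose in the mutant (1.93 ± 0.14, limma adjusted p = 7.12e-08) and in WT (1.53 ± 0.14, limma adjusted p = 8.3e-07), and its responses did not pass the test of their difference (0.39 ± 0.20, limma adjusted p = 0.0909). Mutant against WT at 3 days, XTH22 was not called (-0.11 ± 0.14, limma adjusted p = 0.498), but was 0.45 (limma adjusted p = 0.00917) with median-of-ratios scaling. XTH25 averaged 3.29 TPM in mutant 3 days, 10.7 TPM in WT 3 days, 0.15 TPM in mutant control and 0.517 TPM in WT control. On the log2(TPM + 1) scale it rose by 2.94 ± 0.14 in WT (limma adjusted p = 2.04e-09) and by 1.91 ± 0.14 in the mutant (limma adjusted p = 6.36e-08). These responses differed by -1.04 ± 0.19 (limma adjusted p = 0.000446). Both control means lay below 1 TPM, so the sizes depend on the pseudocount. With a pseudocount of 0.1 the WT change was 4.17, and a larger rise in proportion in WT is not shown. XTH18, a root-expressed gene, averaged 168 TPM in mutant 3 days, 125 TPM in WT 3 days, 11.7 TPM in mutant control and 18.3 TPM in WT control and rose by 3.77 ± 0.20 in the mutant (limma adjusted p = 3.36e-09) and by 2.67 ± 0.20 in WT (limma adjusted p = 1.27e-07).

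For many XTHs the same library was the lowest or highest of its group, a rank for which no share over all genes was taken. In size the control libraries differed little. Their XTH sums were 1380, 1367 and 1338 TPM in WT control and 1070, 1041 and 1063 TPM in mutant control. In WT 3 days the XTH sums were 2232, 1858 and 1805 TPM. WT control replicate 3 was the lowest of its group in 17 of the 25 tested XTHs, and WT 3 days replicate 3 and mutant control replicate 2 in 16 each. WT 3 days replicate 1 was the highest of its group in 17 of the 25 tested XTHs, with 498 against 344 and 357 TPM for XTH24 and 272 against 211 and 204 TPM for XTH23. Without it, 21 of all 48 members rose and 21 fell in WT.

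On the log2(TPM + 1) scale XTH9 and XTH8 had the largest decreases among XTHs in the mutant, and XTH6 and XTH20 in WT. These places depend on the pseudocount. With a pseudocount of 0.1 the WT change was -4.39 for XTH20 and -3.26 for XTH6. In the mutant the mean of XTH20 went from 8.47 to 0.263 TPM, in proportion a larger fall than that of XTH8, from 28.8 to 2.72 TPM. XTH9, which acts with XTH4 in cell expansion of woody tissue, had 2.72, 1.87 and 2.45 TPM in mutant 3 days, against 64.7, 63.6 and 61.04 TPM in WT 3 days. XTH9 had 130.4, 151 and 142 TPM in mutant control, against 185, 207 and 162 TPM in WT control. Libraries of the 4 groups did not overlap. It fell by 5.42 ± 0.10 in the mutant (limma adjusted p = 7.42e-13) and fell by 1.53 ± 0.10 in WT (limma adjusted p = 5.7e-08), and its difference of responses, -3.89 ± 0.15 (limma adjusted p = 1.06e-09), was the largest decrease among XTHs. XTH4, the most abundant XTH of both control groups, had 31.3, 34.3 and 28.01 TPM in mutant 3 days, against 149, 154 and 152 TPM in WT 3 days. XTH4 had 238, 256 and 259 TPM in mutant control, against 404, 407 and 428 TPM in WT control. It was lower in the mutant at 3 days (-2.25 ± 0.064, limma adjusted p = 4.4e-11) and at control (-0.72 ± 0.064, limma adjusted p = 5.09e-06). XTH4 fell by 2.97 ± 0.064 in the mutant and fell by 1.44 ± 0.064 in WT, which differed by -1.53 ± 0.091 (limma adjusted p = 3.02e-08). XTH6 fell too, but was the higher in the mutant at 3 days (0.83 ± 0.10, limma adjusted p = 7.75e-06) and at control (0.46 ± 0.10, limma adjusted p = 0.00219). It had 8.99, 11.8 and 10.7 TPM in mutant 3 days, against 6.33, 4.84 and 5.23 TPM in WT 3 days. XTH6 had 76.4, 74.5 and 69.4 TPM in mutant control, against 54.4, 53.2 and 51.2 TPM in WT control. It changed by -2.70 ± 0.10 in the mutant and by -3.07 ± 0.10 in WT, with a difference of 0.36 ± 0.14 (limma adjusted p = 0.0312). XTH20, active in stem wound healing, fell to near 0 in both genotypes, with means of 0.263 TPM in mutant 3 days, 0.3 TPM in WT 3 days, 8.47 TPM in mutant control and 7.68 TPM in WT control. Its responses did not pass the test of their difference (-0.15 ± 0.20, limma adjusted p = 0.506), which was 0.53 (limma adjusted p = 0.0239) with quantile normalization. XTH21, a root growth gene, stood at 0 TPM in every mutant 3 days library, against 0.26, 0.11 and 0.06 TPM in WT 3 days, and at 4.66, 2.13 and 4.71 TPM in mutant control, against 4.23, 3.77 and 2.57 TPM in WT control.

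Several XTHs fell in the mutant while their WT change was an increase or was not called, and XTH16 rose in WT with no called change in the mutant. XTH8 had 2.49, 2.63 and 3.05 TPM in mutant 3 days, against 50.9, 53.5 and 50.3 TPM in WT 3 days. XTH8 had 32.8, 25.5 and 28.04 TPM in mutant control, against 47.99, 47.6 and 42.6 TPM in WT control. Mutant 3 days lay far below the others, and mutant control below both WT groups, with a mutant change of -3.00 ± 0.089 (limma adjusted p = 2.09e-11), a WT change of 0.16 ± 0.089 (limma adjusted p = 0.115) and a difference of -3.16 ± 0.13 (limma adjusted p = 1.5e-09). With median-of-ratios scaling the WT change of XTH8 was -0.28 (limma adjusted p = 0.0185). XTH17, a root XTH that also responds to shade in petioles, had 8.21, 6.31 and 7.89 TPM in mutant 3 days, against 60.1, 64.1 and 58.6 TPM in WT 3 days. XTH17 had 18.6, 14.8 and 14.98 TPM in mutant control, against 23.5, 26.4 and 19.4 TPM in WT control. It rose by 1.37 ± 0.12 in WT and changed by -1.01 ± 0.12 in the mutant. XTH32, of the subgroup that mainly hydrolyses xyloglucan, had 18.3, 11.1 and 9.77 TPM in mutant 3 days, against 50.1, 57.9 and 68.02 TPM in WT 3 days. XTH32 had 57.5, 58.7 and 56.7 TPM in mutant control, against 30.7, 30.8 and 29.1 TPM in WT control. At control the mutant was the higher group (0.91 ± 0.18, limma adjusted p = 0.00122) and at 3 days the lower (-2.12 ± 0.18, limma adjusted p = 3.14e-07), with responses of -2.11 ± 0.18 in the mutant and 0.93 ± 0.18 in WT that differed by -3.03 ± 0.25 (limma adjusted p = 4.62e-07). XTH7, abundant in every group, averaged 65.3 TPM in mutant 3 days, 313 TPM in WT 3 days, 223 TPM in mutant control and 214 TPM in WT control, and changed by -1.76 ± 0.085 in the mutant and 0.55 ± 0.085 in WT. XTH16 averaged 38.5 TPM in mutant 3 days, 154 TPM in WT 3 days, 37.9 TPM in mutant control and 72.9 TPM in WT control. It was lower in the mutant at 3 days (-1.96 ± 0.10, limma adjusted p = 4.62e-09) and at control (-0.93 ± 0.10, limma adjusted p = 2.15e-05). XTH28, which acts in stamen filament growth, was higher in mutant control by a margin close to the threshold (0.23 ± 0.089, limma adjusted p = 0.0486) that was lost under 14 alternatives, and lower in mutant 3 days (-0.82 ± 0.089, limma adjusted p = 3.48e-06). Its WT change (0.18 ± 0.089, limma adjusted p = 0.0741) became a called decrease under both rescalings, at -0.26 (limma adjusted p = 0.00991) with median-of-ratios scaling and -0.19 (limma adjusted p = 0.0439) by quantile normalization.

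The other tested members were described by their means. EXPA9 averaged 2.85 TPM in mutant 3 days, 6.53 TPM in WT 3 days, 13.1 TPM in mutant control and 13.5 TPM in WT control, EXPA16 averaged 0.573 TPM in mutant 3 days, 2.54 TPM in WT 3 days, 2.41 TPM in mutant control and 2.35 TPM in WT control, and EXPA17, of lateral roots, did not pass 1.62 TPM in any library. Of the XTHs, XTH5 averaged 12.7 TPM in mutant 3 days, 12.6 TPM in WT 3 days, 8.88 TPM in mutant control and 7.79 TPM in WT control and showed no called difference at 3 days (0.0064 ± 0.10, limma adjusted p = 0.96). Its difference of responses was not called (-0.16 ± 0.15, limma adjusted p = 0.329), but was 0.43 (limma adjusted p = 0.0125) with median-of-ratios scaling and 0.48 (limma adjusted p = 0.00691) by quantile normalization. XTH30, known from salt tolerance, averaged 18.7 TPM in mutant 3 days, 24.5 TPM in WT 3 days, 11.4 TPM in mutant control and 18.3 TPM in WT control. It was lower in mutant 3 days than in WT 3 days (-0.37 ± 0.11, limma adjusted p = 0.00927), but 0.17 (limma adjusted p = 0.168) with median-of-ratios scaling and 0.047 (limma adjusted p = 0.71) with quantile normalization. XTH15, a gene of shade-induced petiole growth, averaged 3.85 TPM in mutant 3 days, 20.05 TPM in WT 3 days, 11.2 TPM in mutant control and 14.9 TPM in WT control, and is uncertain because it overlaps the gene AT4G14120 over 382 bases. The root genes XTH12 and XTH13 stayed at or below 3.48 TPM, and XTH12 was listed at 0 in every library of mutant 3 days, against 1.01, 0.72 and 0.38 TPM in WT 3 days. A root hair relative, XTH26, stayed below the filter.

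Genes that lie side by side in the genome did not always move together. XTH24, XTH18 and XTH19 are neighbours, and all rose in both genotypes, but the difference of responses was positive for XTH24 and XTH18 and negative for XTH19 (-0.56 ± 0.21, limma adjusted p = 0.0289), which turned to 0.055 (limma adjusted p = 0.82) with median-of-ratios scaling. XTH23 rose in both genotypes, while its neighbour XTH14, expressed in roots, averaged 6.93 TPM in mutant 3 days, 40.8 TPM in WT 3 days, 10.8 TPM in mutant control and 19.9 TPM in WT control and changed by -0.55 ± 0.22, limma adjusted p = 0.0322 in the mutant and 0.99 ± 0.22, limma adjusted p = 0.00117 in WT. In the run of XTH13, XTH25 and XTH22, the root gene XTH13 fell in both and the other two rose. The 6 neighbours EXPA21 to EXPA26 were all below the filter. Reads from near-identical copies may be divided between them in the counting, and sequence identity between these neighbours was not measured here, so a split of reads between them was not tested and their values are uncertain.

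Other genes of wall growth were described from 6 lists. The median difference of responses, mutant minus WT, was -2.37 for proton pumps, -1.46 for growth regulators, -0.64 for pectin genes, -0.031 for cellulose synthesis, 0.24 for xyloglucan synthesis and trimming and 0.47 for wall sensing and touch genes, beside -0.55 for all genes. For the counts of each list, the shares of all genes were 24.1% higher and 58.7% lower at 3 days, 30.3% higher and 19.2% lower at control, 39.4% rising and 46.5% falling in the mutant, 54.9% rising and 26.4% falling in WT, and 20.6% higher and 56.3% lower for the difference of responses. Plasma membrane proton pumps, which acidify the wall, were lower in 3 of 4 members in mutant 3 days than in WT 3 days, and higher in 2 of 4 at control. AHA3 had 9.74 ± 0.0808 TPM in mutant 3 days, against 104 ± 6.67 TPM in WT 3 days (-3.29 ± 0.061, limma adjusted p = 4.04e-12), and AHA11 had 4.64 ± 0.517 TPM in mutant 3 days, against 50.1 ± 3.69 TPM in WT 3 days (-3.18 ± 0.078, limma adjusted p = 1.68e-11). AHA1 and AHA2, the more abundant pumps, differed less between mutant and WT at 3 days. AHA1 had 309 ± 4.19 TPM in mutant 3 days, against 333 ± 15.5 TPM in WT 3 days. This difference was not called (-0.11 ± 0.053, limma adjusted p = 0.0773). AHA2 had 140 ± 7.91 TPM in mutant 3 days, against 370 ± 15.2 TPM in WT 3 days (-1.40 ± 0.089, limma adjusted p = 2.79e-08). In WT 3 of 4 rose, and in the mutant 1 rose and 3 fell. The pump that rose in the mutant was AHA1 (0.32 ± 0.053, limma adjusted p = 0.000107). The difference of responses was lower for 4 of 4. Among 13 growth regulators, 2 were higher and 9 lower in mutant 3 days than in WT 3 days, and 10 fell and 3 rose in the mutant, against 8 and 2 in WT. At control 5 were higher and 3 lower in the mutant, and the difference of responses was higher for 1 and lower for 10. HBI1, a factor that promotes cell elongation, had 0.47, 0.24 and 0.78 TPM in mutant 3 days, against 13.9, 12.7 and 13.99 TPM in WT 3 days. HBI1 had 102, 106 and 97.99 TPM in mutant control, against 84.2, 84.2 and 86.8 TPM in WT control. PRE1, another factor of that group, had 0.97, 0 and 0.21 TPM in mutant 3 days, against 1.52, 1.63 and 2.46 TPM in WT 3 days. PRE1 had 14.1, 12.7 and 13.8 TPM in mutant control, against 6.6, 7.88 and 7.29 TPM in WT control. The thermosensory growth factor PIF4 averaged 5.18 TPM in mutant 3 days, 19.7 TPM in WT 3 days, 68.1 TPM in mutant control and 83.1 TPM in WT control, and BZR1, a brassinosteroid-response factor, averaged 39.95 TPM in mutant 3 days, 26.6 TPM in WT 3 days, 16.4 TPM in mutant control and 19.01 TPM in WT control and was the sole regulator called higher in the difference of responses (0.77 ± 0.10, limma adjusted p = 3.06e-05).

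Genes that build or trim xyloglucan split in direction. Of 16 genes of xyloglucan synthesis and trimming, 8 rose and 7 fell in the mutant and 7 rose and 6 fell in WT, and the difference of responses was higher for 7 and lower for 5. The galactosyltransferase MUR3 averaged 62.1 TPM in mutant 3 days, 27.1 TPM in WT 3 days, 12.1 TPM in mutant control and 13.9 TPM in WT control (1.34 ± 0.11, limma adjusted p = 5.37e-07 for the difference of responses), and the xylosyltransferase XXT1 averaged 27.9 TPM in mutant 3 days, 15.4 TPM in WT 3 days, 9.01 TPM in mutant control and 16.02 TPM in WT control (1.59 ± 0.13, limma adjusted p = 3.43e-07). XLT2, another galactosyltransferase, moved the other way (-2.88 ± 0.11, limma adjusted p = 1.2e-09), as did XYL1, a xylosidase that trims xyloglucan (-2.53 ± 0.066, limma adjusted p = 1.38e-10). At 3 days 7 were higher and 8 lower in the mutant, and at control 4 and 7. Genes of primary wall cellulose synthesis rose in 6 and fell in 3 of 9 in the mutant, and rose in 8 and fell in 1 in WT. KOR1, a membrane-bound endoglucanase, averaged 506 TPM in mutant 3 days, 346 TPM in WT 3 days, 192 TPM in mutant control and 183 TPM in WT control. The cellulose synthase CESA5 changed by -1.68 ± 0.068, limma adjusted p = 1.59e-09 in the difference of responses. Among these 9, 4 were higher and 5 lower in the mutant at 3 days, and 1 and 4 at control, and the difference of responses was higher for 4 and lower for 3.

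In the pectin list of 12, of which 11 were tested, 3 rose and 6 fell in the mutant and 4 rose and 3 fell in WT. The mutant was higher in 2 and lower in 5 at 3 days, and higher in 2 and lower in 4 at control. Those higher at 3 days were QUA2 (0.31 ± 0.053, limma adjusted p = 0.000176) and PME17 (0.91 ± 0.24, limma adjusted p = 0.00431). The difference of responses was higher in 1 and lower in 6. PME5, a pectin methylesterase, had 0.28, 0 and 0.1 TPM in mutant 3 days, against 27.4, 33.03 and 43.8 TPM in WT 3 days. PME5 had 80.8, 103 and 90.3 TPM in mutant control, against 91.2, 91.3 and 89.5 TPM in WT control. PMR6, a pectate lyase-like gene, had 7.85 ± 0.208 TPM in mutant 3 days, against 82.3 ± 4.17 TPM in WT 3 days (-3.23 ± 0.056, limma adjusted p = 2.74e-12). Of 4 wall sensing and touch genes, the receptor kinase gene FER averaged 183 TPM in mutant 3 days, 79.2 TPM in WT 3 days, 60.7 TPM in mutant control and 80.04 TPM in WT control and the calmodulin-like TCH3 217 TPM in mutant 3 days, 108 TPM in WT 3 days, 95.4 TPM in mutant control and 132 TPM in WT control, and both were higher in mutant 3 days than in WT 3 days (1.19 ± 0.083, limma adjusted p = 6.49e-08 and 0.99 ± 0.12, limma adjusted p = 1.02e-05), while the receptor kinase gene THE1 was lower (-1.37 ± 0.10, limma adjusted p = 9.47e-08). TCH2, a calmodulin-like gene, did not pass at 3 days (-0.054 ± 0.075, limma adjusted p = 0.515). From control, 3 rose and 1 fell in the mutant, 1 rose and 1 fell in WT, and the difference of responses was higher for 2 and lower for 2. At control 1 was higher and 2 lower in the mutant.

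Markers of seedling organs differed between these groups, and markers of the same organ did not always move together. The leaf mesophyll genes RBCS1A, LHCB1.1 and LHCB2.1 summed to 1635 to 2345 TPM in mutant 3 days, 2348 to 2924 TPM in WT 3 days, 26034 to 27042 TPM in mutant control and 24616 to 25180.1 TPM in WT control. They fell in 3 of 3 in each genotype, beside 46.5% of all genes in the mutant and 26.4% in WT. Root markers (PYK10, CASP1, PIN2 and SCR) summed to 42.9 to 59.5 TPM in mutant 3 days, 177 to 253 TPM in WT 3 days, 1678 to 1831 TPM in mutant control and 2516 to 2903 TPM in WT control. All of them fell in the mutant, but in WT SCR rose while PYK10, CASP1 and PIN2 fell. At control SCR was higher and PYK10 lower in the mutant than in WT, with no call for CASP1 and PIN2. Vessel markers (VND7, XCP1 and XCP2) summed to 11.7 to 12.3 TPM in mutant 3 days, 237 to 315 TPM in WT 3 days, 102 to 122 TPM in mutant control and 82.2 to 102 TPM in WT control. At control VND7 and XCP2 were higher and XCP1 lower in the mutant than in WT. All of them fell in the mutant, while in WT XCP1 and XCP2 rose and VND7 was not called. Phloem markers (SUC2 and APL) summed to 9.73 to 13.4 TPM in mutant 3 days, 41.3 to 41.9 TPM in WT 3 days, 63.8 to 76.2 TPM in mutant control and 84.2 to 90.8 TPM in WT control. SUC2 fell in WT (-1.91 ± 0.12, limma adjusted p = 2.31e-08) where APL rose (0.87 ± 0.10, limma adjusted p = 6.26e-06), and both fell in the mutant (-3.10 ± 0.12, limma adjusted p = 1.69e-10 for SUC2, -1.004 ± 0.10, limma adjusted p = 1.31e-06 for APL). The guard cell markers moved in opposite directions in the mutant. FAMA averaged 13.1 TPM in mutant 3 days, 11.9 TPM in WT 3 days, 9.59 TPM in mutant control and 9.70 TPM in WT control and rose there (0.42 ± 0.078, limma adjusted p = 0.000348). KAT1 averaged 1.49 TPM in mutant 3 days, 8.09 TPM in WT 3 days, 11.8 TPM in mutant control and 6.21 TPM in WT control and fell (-2.37 ± 0.10, limma adjusted p = 3.54e-10), which left it lower in mutant 3 days than in WT 3 days (-1.87 ± 0.10, limma adjusted p = 5.16e-09). The 2 seed markers summed to 2.99 to 4.47 TPM in mutant 3 days, 0.18 to 0.67 TPM in WT 3 days, 0.04 to 0.42 TPM in mutant control and 0 to 0.06 TPM in WT control, and of these At2S3 was listed at 0 in every library. The part of these organs and cells in the changes of expansins and XTHs was not tested.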

How the data were processed

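RNA was sequenced from seedlings in 12 libraries. The authors deposited TPM per gene in 1 matrix, and the submitters' processing notes name RSEM and the TAIR10 build without saying what each did. The sources used here do not give reads per library, so the depth behind a value is unknown. TPM plus a pseudocount of 1 was taken to log2, genes that reached 1 TPM in no fewer than 3 libraries were kept (22462 of 37825), and limma 3.58.1 in R 4.3.3, with an intensity trend, was fitted with 1 mean per group. From that fit 5 comparisons were taken, with Benjamini-Hochberg adjustment over all kept genes and a call at an adjusted p under 0.05. The fit was tested on simulated data. Groups were read from the sample titles, and replicate numbers did not pair the samples (correlations of deviations from the group means between -0.096 and 0.026).

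The members and lists were chosen with earlier results of these data known. Named members are, in each comparison and family, the 3 called members with the largest increase and the 3 with the largest decrease among those averaging 5 TPM or more in whichever group is higher, with the most abundant member of each family. From pathway lists, called genes with large changes were named, but not always the largest in each direction, and further genes were described after their values were seen. Some listed genes without a matching RefSeq name were counted but not named. Alternatives were pseudocount, filters, scaling, trend, groups in the fit, replicate block and leaving out each library. Gene names and neighbours came from a RefSeq table of another assembly name (37572 loci matched), so no coordinates are given, and sequence features were not analysed here.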

Additional observations from a re-analysis of the deposited data

Results flagged for a closer look

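The response from control to 3 days differed between mutant and WT for 39 of the 48 tested members by the test of the difference itself. Of these, 29 were lower and 10 higher. The same test called 56.3% of all genes lower and 20.6% higher, so the count is close to the share of all genes. The 15 below are the largest, up to 3 per family and direction among members averaging 5 TPM or more in at least 1 group, given as mutant response minus WT response on the log2(TPM + 1) scale and called in limma. Among alpha-expansins it was 0.72 ± 0.12 for EXPA13, -4.57 ± 0.13 for EXPA5, -4.19 ± 0.17 for EXPA4 and -3.75 ± 0.19 for EXPA15. Among beta-expansins it was -3.30 ± 0.15 for EXPB3 and -2.96 ± 0.13 for EXPB1. Among expansin-like genes it was 3.09 ± 0.16 for EXLA1, 1.09 ± 0.20 for EXLA2 and -2.80 ± 0.10 for EXLB1. Among XTHs it was 3.81 ± 0.47 for XTH11, 3.05 ± 0.31 for XTH10, 2.23 ± 0.24 for XTH24, -3.89 ± 0.15 for XTH9, -3.16 ± 0.13 for XTH8 and -3.03 ± 0.25 for XTH32. Over all genes tested the median of this difference was -0.55. With a pseudocount of 0.1 EXPA8, which is not among the 15, showed a larger decrease than EXPA15 and EXPA4.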

How the results depend on the processing

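Of 76 named changes in 29 members, 71 kept their direction and their side of the threshold under all alternatives that were run. The increase of EXPA13 in WT turned to -0.070 (limma adjusted p = 0.471) with median-of-ratios scaling and -0.038 (limma adjusted p = 0.697) with quantile normalization, and the mutant increase of EXPA10 turned to -0.16 (limma adjusted p = 0.0287) with quantile normalization; the cause was not tested. The control difference of XTH28 lost its call under 14 alternatives, with adjusted p from 0.0522 to 0.157 in limma. Median-of-ratios scaling moved the family sums by more than the spread of replicates in 12 of 16 cases. Alpha-expansins then summed to 185 TPM in mutant 3 days, 302 TPM in WT 3 days and 704 TPM in WT control. Beta-expansins summed to 12.5 TPM in WT 3 days, 122 TPM in mutant control and 87.9 TPM in WT control. Expansin-like genes summed to 649.98 TPM in mutant 3 days, 194 TPM in WT 3 days and 51.1 TPM in WT control, and XTHs to 2024 TPM in mutant 3 days, 1538 TPM in WT 3 days and 1459.6 TPM in WT control. With the replicate block, 8 members were higher and 33 lower in mutant 3 days than in WT 3 days, and 13 higher and 17 lower at control, so it moved no count by over 1.5 times. Depth is unknown, and TPM near 0 limits folds in mutant 3 days.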

Other observations

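A few relatives lie outside the rule, because their descriptions do not hold its words. They were picked after their values were seen, and means are given without a test. EXPA3 averaged 2.98 TPM in mutant 3 days, 27.4 TPM in WT 3 days, 94.9 TPM in mutant control and 58.4 TPM in WT control, the same order of groups as the alpha-expansin sum. XTH31, of the same hydrolase subgroup as XTH32, averaged 24.95 TPM in mutant 3 days, 149 TPM in WT 3 days, 123 TPM in mutant control and 77.9 TPM in WT control. XTH27 averaged 113 TPM in mutant 3 days, 99.6 TPM in WT 3 days, 106 TPM in mutant control and 92.4 TPM in WT control. XTH33, a membrane-anchored member, averaged 1.07 TPM in mutant 3 days, 2.9 TPM in WT 3 days, 1.14 TPM in mutant control and 2.14 TPM in WT control.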
